A study of Mus musculus with 2 samples.

Results

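Some neighbouring genes begin or end so close together that a single stretch of open chromatin covers, or lies near, an end of both. Accessibility at 1771 such shared regions was compared between the epidermis of a stretched mouse and that of an untreated mouse. A region was taken as shared where it overlapped the annotated ends of 2 or more different protein-coding genes, or lay within 500 bp of both, on an autosome and with at least 20 counts summed over the libraries. These were 1771 of 93155 autosomal regions with that many counts, and 23 further regions that met the distance rule had fewer counts. Both ends lay inside the region at 1314 of them, 1730 carried 2 genes, 40 carried 3 and 1 carried more, and 3376 genes had an end at one of them. They were compared with 9385 regions that overlapped the end of 1 gene only.

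The stretched library came from basal cells of 1 CD1 mouse whose back skin had undergone tissue stretching, an expansion of the skin by force, and the control library from those of 1 CD1 mouse with no treatment. CD1 is an outbred stock, so the animals also differ in genotype, and copy number was not measured. In both mice, interfollicular epidermal cells were sorted as ITGA6 positive and CD34 negative, and 10000 sorted cells went into each ATAC-seq library, in which the transposase Tn5 cuts open DNA and tags it for sequencing. Each group is 1 library, so differences have no replicates behind them and no p-values are given.

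The stretched library held 11803785 counts over all merged regions, from 23876613 fragments after filtering, and the control library 8820178 counts, from 31944854 fragments. A shared region had between 2 and 1419 counts in the stretched library, with a median of 165, and between 4 and 1123 in the control library, with a median of 132. The shared regions held 3.02% of all counts in the stretched library and 3.09% in the control library, and outside 10 regions of over 10000 counts each these shares were 5.92% and 4.72%. Regions at the ends of 5 of the 6 basal keratinocyte markers examined held 1783 counts in the stretched library and 1592 in the control library, and none lay at the ends of Trp63. The 4 markers of hair follicle stem cells had 357 and 461 counts, of which Cd34 had 24 and 32, the suprabasal markers Krt1 and Ivl had 108 and 158 together, and the melanocyte marker Mlana had 21 and 29. No merged region lay at the ends of Krt10, of the melanocyte gene Dct, or of any of the 7 leukocyte, fibroblast and endothelial markers.

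In mammals, a pair of genes that start next to each other on opposite strands and are transcribed away from each other shares a bidirectional promoter. Such promoters usually sit in CpG islands, lack a TATA box and stay open in most cell types, and they serve many genes for DNA repair, mitochondrial function and RNA processing. Gene strand was known for every gene at 1295 of the shared regions, and 853 of these held starts of genes on opposite strands (head to head). This class includes 311 regions of 2 genes whose annotated starts overlap, so that the genes run across each other's start. A further 338 joined the start of 1 gene to the end of another (head to tail), 77 joined 2 gene ends (tail to tail) and 27 held starts of the same strand, while the arrangement of 476 was undetermined.

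The DNA between the outermost starts of 8 head-to-head pairs shows how short this shared sequence can be, and the pairs were taken to span the range of folds described below. Each sequence comes from the RefSeq promoter table of GRCm38 and is read on the plus strand, so that the first gene named starts just to the left of it and runs leftward, and the second starts just to the right. Capitals mark exact matches, on either strand, to 1 of 9 short motifs. Larp7 and Zgrf1 are separated by chr3:127553350-127553395, Mettl25 and Ccdc59 by chr10:105841381-105841478 and Aasdhppt and Kbtbd3 by chr9:4309618-4309742, and the regions at these 3 pairs were more accessible in the stretched library.
Larp7/Zgrf1: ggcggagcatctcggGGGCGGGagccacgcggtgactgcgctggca
Mettl25/Ccdc59: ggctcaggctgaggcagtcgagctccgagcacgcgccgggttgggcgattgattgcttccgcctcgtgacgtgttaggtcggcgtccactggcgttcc
Aasdhppt/Kbtbd3: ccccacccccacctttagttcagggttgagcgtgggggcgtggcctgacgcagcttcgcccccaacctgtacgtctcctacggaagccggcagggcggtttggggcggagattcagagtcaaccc
The capitals in the 46 bp between Larp7 and Zgrf1 are an SP/KLF match (GGGCGGG), and the sequences of the other 2 pairs held none of the 9 motifs. Hspa14 and Cdnf are separated by chr2:3512815-3513064, Ranbp1 and Trmt2a by chr16:18248695-18248846, Psmb9 and Tap1 by chr17:34187331-34187555 and Mrps12 and Sars2 by chr7:28741822-28741956, and the regions at these 4 pairs did not reach a 2-fold difference.
Hspa14/Cdnf: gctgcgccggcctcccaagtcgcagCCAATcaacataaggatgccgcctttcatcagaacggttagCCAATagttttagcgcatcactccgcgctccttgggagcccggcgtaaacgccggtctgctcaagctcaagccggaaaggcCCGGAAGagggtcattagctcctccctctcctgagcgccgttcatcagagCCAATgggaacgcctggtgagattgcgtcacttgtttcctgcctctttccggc
Ranbp1/Trmt2a: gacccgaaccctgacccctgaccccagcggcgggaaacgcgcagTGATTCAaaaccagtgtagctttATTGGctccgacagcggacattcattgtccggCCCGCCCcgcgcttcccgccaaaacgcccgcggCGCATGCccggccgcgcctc
Psmb9/Tap1: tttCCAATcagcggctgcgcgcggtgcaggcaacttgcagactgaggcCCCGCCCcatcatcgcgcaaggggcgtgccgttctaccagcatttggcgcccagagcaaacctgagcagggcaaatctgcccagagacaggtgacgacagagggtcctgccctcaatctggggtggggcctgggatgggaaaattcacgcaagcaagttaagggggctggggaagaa
Mrps12/Sars2: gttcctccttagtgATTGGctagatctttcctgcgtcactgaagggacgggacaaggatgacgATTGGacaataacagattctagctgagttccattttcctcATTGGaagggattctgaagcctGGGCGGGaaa
The capitals are an ETS match (CCGGAAG) and 3 NFY matches (CCAAT) between Hspa14 and Cdnf, and 1 match each to AP-1 (TGANTCA), NFY, SP/KLF and NRF1 (GCATGCG) between Ranbp1 and Trmt2a. They are 1 NFY and 1 SP/KLF match between Psmb9 and Tap1, and 3 NFY and 1 SP/KLF match between Mrps12 and Sars2. The last pair, H2-T22 and Gm6034, separated by chr17:36042743-36042960, had one of the smallest folds and holds 3 NFY matches.
H2-T22/Gm6034: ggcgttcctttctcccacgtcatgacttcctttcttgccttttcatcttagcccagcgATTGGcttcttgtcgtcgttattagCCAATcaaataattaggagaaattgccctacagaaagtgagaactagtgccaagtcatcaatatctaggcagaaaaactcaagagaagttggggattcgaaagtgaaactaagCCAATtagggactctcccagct
GC content in these 8 sequences was lowest between H2-T22 and Gm6034, at 43.6%, and highest between Larp7 and Zgrf1, at 76.1%. Such a sequence was available for 13 named pairs, and the regions at those not printed also stayed within 2-fold. Of these, Wrap53/Trp53, Sirt3/Psmd13 and Tmem129/Tacc3 held 0 matches, Brca1/Nbr1 held 1 and Il9r/Snrnp25 held 4. The printed pairs therefore do not show how matches go with the fold. A match says only that the letters are present, and its absence says nothing of the factor.

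Shared regions were on balance more accessible in the stretched library than the median region of the genome. Here a fold is the stretched count over the control count after TMM scaling, which sets the median region near 1, and its interval is an exact 95% interval that covers counting error only, since PCR reads without molecular identifiers are not independent molecules. A region was called higher or lower at a fold of at least 2 or at most 0.5 with an interval that excludes 1. Of the 1771 shared regions, 190 (10.7%) were higher and 22 (1.24%) lower, where over all autosomal regions 6.99% were higher and 8.79% lower, and over regions at 1 gene end 9.15% were higher and 2.82% lower. The fold was above 1 at 1326 shared regions. Their median log2 fold was 0.36 (quartiles 0.00 to 0.72), against 0.27 at regions with 1 gene end and -0.01 over all autosomal regions. This direction depends on the scaling. With counts scaled by the library totals, the median log2 fold of all autosomal regions moved to -0.51. Then 18 shared regions were higher, 124 were lower and their median was -0.14, against -0.23 at regions with 1 gene end. These totals include the 10 regions of over 10000 counts, outside which the stretched library held 6027023 counts and the control library 5776423. Scaled by those counts, 116 shared regions were higher, 41 were lower and their median was 0.21. The median of all autosomal regions was then -0.15. DESeq2 size factors gave 195 higher, 22 lower and a median of 0.36 at shared regions. The difference of 0.08 between the medians of shared regions and regions at 1 gene end is the same under any scaling of the libraries, but it was 0.02 once the dependence of the fold on the count was removed. The order of the shares then turned, with 56 shared regions (3.16%) higher, against 3.77% of regions at 1 gene end and 7.51% of all autosomal regions.

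**Figure D1:**
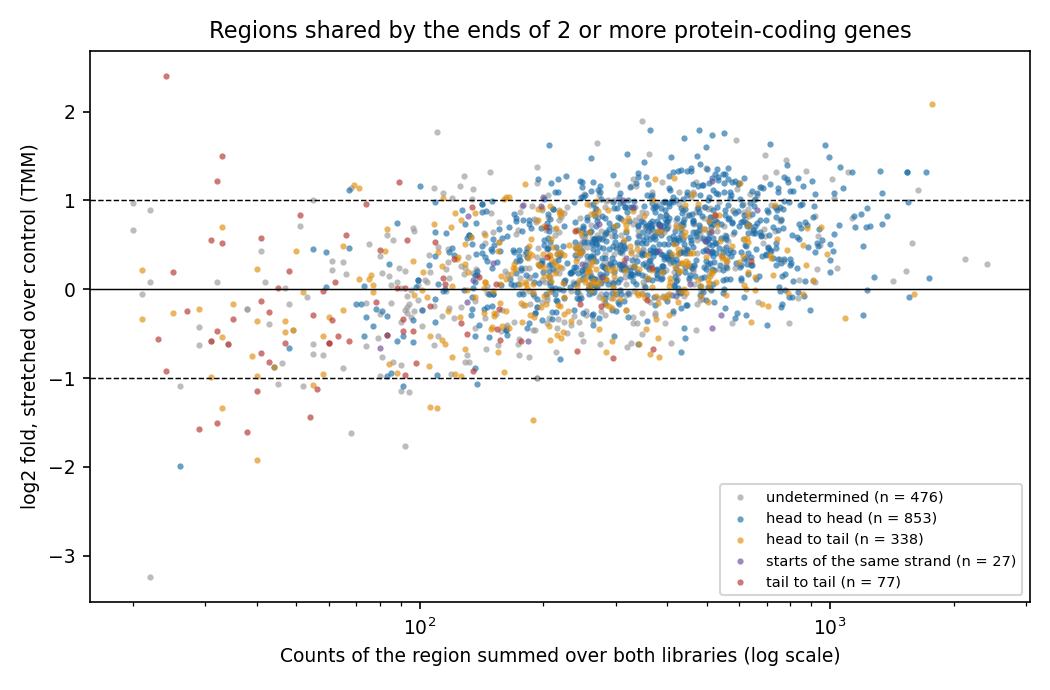
Log2 fold of each shared region, stretched over control with TMM scaling (vertical axis), against its counts summed over both libraries (horizontal axis, log scale), coloured by the arrangement of the genes. Dashed lines mark folds of 2 and 0.5; points above 200 counts lie mostly above 0 and the regions called lower lie mostly under 100 counts.

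Head-to-head regions held most of the higher regions whose gene arrangement was known. Of 853, 122 (14.3%) were higher and 3 (0.352%) lower, the fold was above 1 at 722, and the median log2 fold was 0.47. Regions at 1 gene start, 7013 in number, were higher at 9.53% and lower at 2.28%, with a median of 0.30. The 27 regions with starts of the same strand had a median of 0.43 and the 338 head-to-tail regions one of 0.17, with 13 higher and 6 lower. The 77 tail-to-tail regions were on the other side, with a median of -0.22, 4 higher and 6 lower, and so were 360 regions at a single gene end that was not a start, with a median of -0.15, 16 higher and 34 lower. Scaling by library totals turned the head-to-head median to -0.03, with 10 higher and 22 lower, and that of regions at 1 start to -0.20. The head-to-head median lay 0.17 above that of regions at 1 start under every scaling, and 0.07 above it with the count dependence removed, a difference that has no test here. With that dependence removed the share of higher regions was no longer the larger, at 27 of 853 head-to-head regions (3.17%) against 254 of 7013 regions at 1 start (3.62%).

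**Figure D2:**
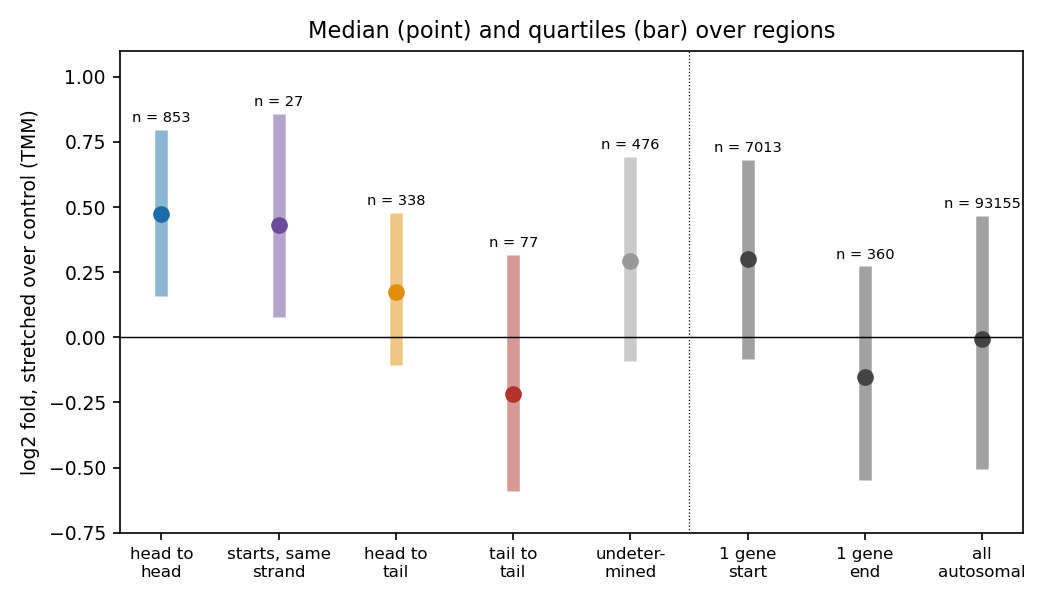
Median (point) and quartiles (bar) of the log2 fold, stretched over control with TMM scaling, over regions of each gene arrangement, with the number of regions above each bar. Left of the dotted line are the shared regions and right of it the regions at 1 gene start, at 1 gene end that is not a start, and all autosomal regions; head-to-head regions sit highest at 0.47 and tail-to-tail regions lowest at -0.22.

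The share of higher regions also differed with the position of the second gene. Where both gene ends lay inside the region, 166 of 1314 were higher and 7 lower with a median of 0.42, and where the second end lay outside it, 24 of 457 were higher and 15 lower with a median of 0.12. At the limit of the rule, 103 regions with the second end 400 to 500 bp away had a median of 0.08 with 3 higher, and 84 regions just beyond it, up to 600 bp, had 0.02 with 8 higher. At the limit on counts, 11 shared regions with 20 to 24 counts had a median of 0.08 and 12 with 15 to 19 counts one of 0.42. Among head-to-head regions with 2 genes, the annotated starts overlapped at 311, of which 50 were higher and 2 lower (median 0.42). They lay 0 to under 100 bp apart at 264 (27 higher, 0 lower, median 0.52), 100 to under 250 bp apart at 148 (27 and 1, median 0.50) and 250 to under 500 bp apart at 74 (13 and 0, median 0.58). The 38 pairs with starts 500 bp or more apart had the lowest median of these classes, 0.18, with 3 higher and 0 lower.

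Shared regions were also larger, richer in counts and placed among more genes than regions at 1 gene end. Their median length was 1332 bp against 1248 bp, their median summed count 299 against 239, and a median of 23 protein-coding genes lay within 500 kb against 15. The fold moved with the last 2 of these. Among shared regions, the median log2 fold was -0.38 at 20 to under 50 summed counts, -0.16 at 50 to under 100, 0.16 at 100 to under 200, 0.37 at 200 to under 400 and 0.56 at 400 or more. By gene density it was 0.84 with up to 5 genes within 500 kb, 0.73 with 6 to 10, 0.43 with 11 to 20, 0.25 with 21 to 40 and 0.13 with over 40. Within each class of density, more head-to-head regions than regions at 1 start were higher, with 36.2% against 16.4% at up to 5 genes, 29.5% against 15.1% at 6 to 10, 15.1% against 8.65% at 11 to 20, 5.24% against 4.21% at 21 to 40 and 4.5% against 3.58% at over 40. With 400 or more counts and the same density, the head-to-head median was 0.98 against 0.74 at up to 5 genes, 0.86 against 0.76 at 6 to 10, 0.72 against 0.59 at 11 to 20 and 0.39 against 0.28 at 21 to 40, but 0.19 against 0.31 at over 40 genes. These log2 folds are all 0.50 lower with scaling by library totals, which puts the medians below 0.50 under 0.

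**Figure D3:**
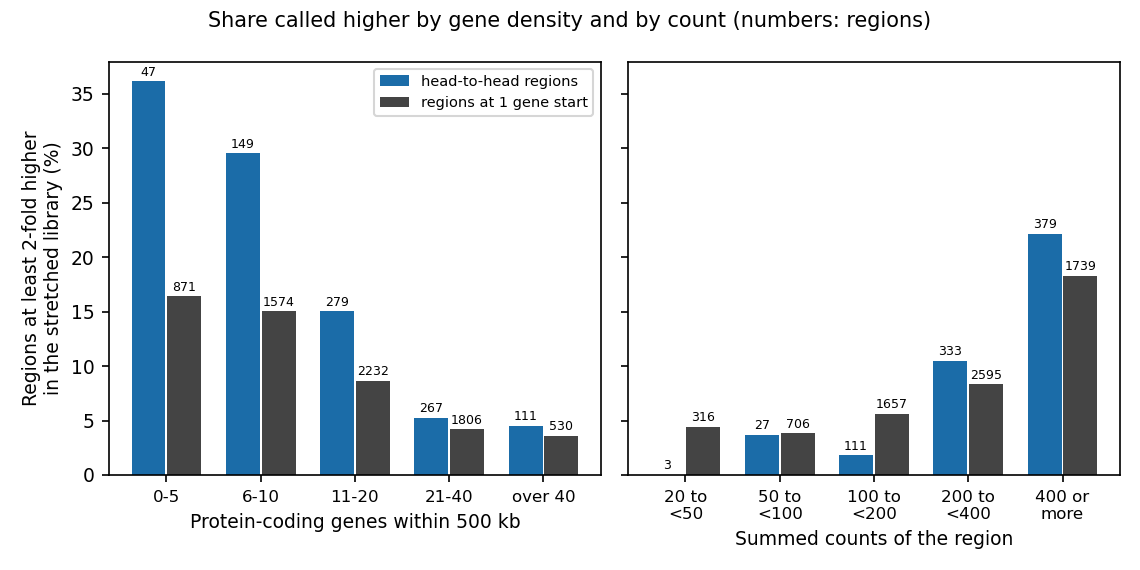
Share of regions called higher, at 2-fold or more in the stretched library (vertical axis, percent) for head-to-head regions (blue) and regions at 1 gene start (grey), by protein-coding genes within 500 kb (left) and by summed counts (right); the numbers above the bars are regions. The head-to-head share is 36.2% among the fewest genes and 4.5% among the most, and it is the larger of the pair in each class of density but not in the 3 classes under 200 counts.

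The largest folds came from pairs of varied function, among them genes of DNA repair, autophagy and cell death. Among shared regions with at least 100 summed counts, the region of LOC108167694 and Gm20783 (chr9:124422641-124425888) came first, with 1419 counts in the stretched library against 354 in the control library, a fold of 4.24 (3.77 to 4.77; all coordinates are GRCm38). Both genes have placeholder names, and whether they have near-identical copies elsewhere was not examined. At Ap3s1, a subunit of the AP-3 adaptor of vesicle traffic, and Atg12, an autophagy conjugation protein, counts were 270 in the stretched library and 77 in the control library, a fold of 3.71 (2.87 to 4.84). The region of Smc6, part of the SMC5/6 complex of DNA repair, and Gen1, a resolvase of Holliday junctions, at chr12:11265008-11266684, had 368 counts in the stretched library against 112 in the control library, a fold of 3.47 (2.80 to 4.33). Ikbip and Apaf1, the scaffold of the apoptosome, shared chr10:91082167-91083531, with 279 against 85 counts and the same fold, 3.47 (2.71 to 4.48). Further large folds were at Larp7, which binds the 7SK RNA, with Zgrf1 (420 against 131, 3.39-fold), Mettl25 with Ccdc59 (390 against 124, 3.32-fold), and Acbd7 with Rpp38, a subunit of RNase P (333 against 108, 3.26-fold). These 7 regions kept this call with scaling by library totals and with the count dependence removed.

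The 8 smallest folds among shared regions with at least 100 counts came from regions with 106 to 193 counts, mostly at head-to-tail or undetermined pairs, and 4 of them were lower. Ctdsp2, a small phosphatase, and Avil, the actin-binding protein advillin, at chr10:127000272-127001591, had 48 counts in the stretched library and 141 in the control library, a fold of 0.36 (0.254 to 0.502). Mc1r, the melanocortin receptor of pigment cells, and Tubb3, a beta tubulin best known from neurons, at chr8:123411150-123411999, had 30 against 80 counts, a fold of 0.396 (0.251 to 0.610). Cul9, a cullin, and Srf, the serum response factor that controls actin genes, at chr17:46545707-46547427, had 29 counts in the stretched library and 77 in the control library, a fold of 0.398 (0.25 to 0.617). Mrps2, a protein of the mitochondrial ribosome, and 1700007K13Rik, at chr2:28465842-28466650, had 43 against 95, a fold of 0.478 (0.326 to 0.693). All 4 kept this call with scaling by library totals and with the count dependence removed. The next 4, from 0.50 to 0.514, did not pass the limit, at Shmt2 with Ndufa4l2, at Tbc1d17 with Il4i1b and Il4i1, at Pygm with Rasgrp2, and at H2-T22 with Gm6034, where the counts were 36 in the stretched library and 74 in the control library.

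Textbook pairs with a shared promoter were present in the data, and with TMM scaling none was lower. Of the 26 pairs listed, 23 had a region that carried both genes, 5 of which were higher, and the median log2 fold was 0.47. The values of 3 higher pairs follow. Mcm4, a subunit of the replicative helicase, and Prkdc, the DNA-dependent protein kinase of end joining, at chr16:15636788-15638223, had 614 counts in the stretched library and 258 in the control library, a fold of 2.51 (2.17 to 2.92). The region of the purine synthesis genes Paics and Ppat, chr5:76950614-76952346, had 499 counts in the stretched library and 247 in the control library, a fold of 2.13 (1.83 to 2.50). Hspe1 and Hspd1 encode the cofactor of the mitochondrial chaperonin and the chaperonin itself. Their region, chr1:55087053-55088671, had 351 against 175 counts, a fold of 2.12 (1.76 to 2.56). With scaling by library totals these 3 folds were between 1.5 and 1.78, so they kept their direction and passed no limit. Over the 23 regions, library totals left 0 higher and 1 lower, with a median of -0.03, and removing the count dependence left 0 higher and 0 lower, with a median of 0.10 and folds of 1.68, 1.48 and 1.59 at these 3.

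The other 18 textbook pairs stayed within 2-fold. Prepl and Camkmt had the highest fold of them, 1.71 (1.46 to 2.0), from 432 counts in the stretched library and 267 in the control library. Atm, the kinase that answers DNA double-strand breaks, and Npat, a coactivator of histone genes, had 556 and 400 counts, a fold of 1.47 (1.29 to 1.67). For Ranbp1 and Trmt2a, whose shared sequence is printed above, the counts were 306 and 241 and the fold 1.34 (1.13 to 1.60). Psmb9, a subunit of the immunoproteasome, and Tap1, a peptide transporter of antigen presentation, had 228 counts in the stretched library and 197 in the control library (1.22-fold), and Mrps12 and Sars2 had 203 and 188 (1.14-fold). At Wrap53 and Trp53 the counts were 276 and 272, and at Brca1 and Nbr1 290 and 326, with folds of 1.07 (0.904 to 1.27) and 0.940 (0.80 to 1.1), whose intervals include 1. The basement membrane collagens were at the low end, with 118 against 179 counts and a fold of 0.697 (0.547 to 0.884) at Col4a2 and Col4a1, and 41 against 52 counts and a fold of 0.833 (0.539 to 1.28) at Col4a3 and Col4a4. Scaling by library totals put the folds of Ranbp1 with Trmt2a, Psmb9 with Tap1, Mrps12 with Sars2 and Wrap53 with Trp53 below 1, and that of Atm with Npat at 1.04. The same scaling put Col4a2 with Col4a1 at 0.493, which passed the limit as lower.

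**Figure D4:**
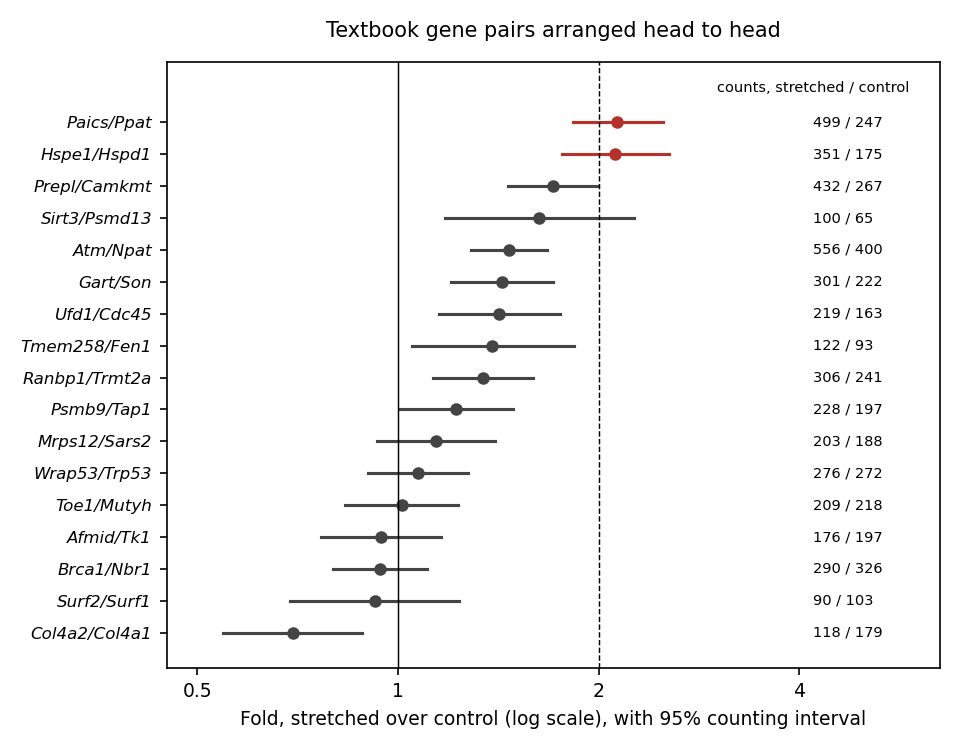
Fold, stretched over control with TMM scaling (horizontal axis, log scale), of the 17 textbook pairs arranged head to head, ordered by fold; bars are exact 95% counting intervals and the counts of each library stand at the right. The pairs called higher (red) are Paics/Ppat at 2.13 and Hspe1/Hspd1 at 2.12, and Col4a2/Col4a1 lies lowest at 0.697.

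Of the 10 gene lists, 9 had a median log2 fold above that of all shared regions, and 7 did once the count dependence was removed. The median of all shared regions was then 0.11, against 0.10 for the textbook pairs, 0.01 for proteasome and chaperone genes and -0.13 for keratinocyte and skin genes. The lists also differed in gene arrangement. Head-to-head regions were 853 of the 1771 shared regions, 2 of 10 for keratinocyte and skin genes, 12 of 16 for the cell cycle and 18 of 24 for proteasome and chaperone genes. Only DNA repair, cell cycle and histone genes had a median above the 0.47 of head-to-head regions. The part of arrangement in the list medians was not tested. A list's median below is that of the shared regions carrying at least 1 of its genes, beside 0.36 and 10.7% higher over all shared regions, and the examples beyond the regions with the most counts were chosen after their values were seen. Genes of DNA repair and replication were at 56 regions, of which 10 were higher and 0 lower, with a median of 0.51. Examples are Ercc8, of transcription-coupled repair, with Ndufaf2 (344 counts in the stretched library against 129 in the control library, 2.82-fold), Fancm, a Fanconi anaemia translocase, with Fkbp3 (322 against 135, 2.52-fold), and Rpa3, a subunit of the single-strand binding protein RPA, with Umad1 (537 against 237, 2.39-fold). Cell cycle genes were at 16 regions with 3 higher, 0 lower and a median of 0.59. Aurka, a mitotic kinase, and Cstf1 had 390 against 175 counts (2.35-fold), Cenpk, a kinetochore protein, and Ppwd1 221 against 105 (2.22-fold), while Tacc3, a spindle protein, and Tmem129 had 374 counts in the stretched library and 421 in the control library (0.939-fold). Scaling by library totals took the call from all of these higher regions and left medians of 0.01 for DNA repair and 0.09 for the cell cycle, and removing the count dependence left 1 higher region for DNA repair and 0 for the cell cycle.

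Mitochondrial genes made the largest list, with 108 regions, 11 higher, 2 lower and a median of 0.40. Slc25a40, a mitochondrial carrier, and Dbf4, which activates the replication kinase CDC7, had 531 counts in the stretched library and 181 in the control library (3.10-fold). Atp5j, a subunit of the ATP synthase, and Gabpa, an ETS transcription factor, had 542 against 248 (2.31-fold). Tomm40, the channel of the outer membrane translocase, and Nectin2 had 763 counts in the stretched library and 839 in the control library, a fold of 0.961 (0.870 to 1.06), in a head-to-tail region. Cytosolic ribosomal proteins were at 26 regions with 3 higher, 0 lower and a median of 0.43, led by Rpl37 with Card6 (354 against 145, 2.58-fold). RNA processing genes and tRNA synthetases were at 47 regions with 4 higher, 0 lower and a median of 0.45, among them Srsf7, a splicing factor, with Gemin6 (323 against 153, 2.23-fold). Proteasome and chaperone genes were at 24 regions with 4 higher, 0 lower and a median of 0.46. Psma2, a proteasome subunit, and Mrpl32 had 396 counts in the stretched library and 181 in the control library (2.31-fold), and Cct5, a subunit of the cytosolic chaperonin, and Atpsckmt 355 and 178 (2.11-fold). Numbered zinc finger genes were at 50 regions with 6 higher, 0 lower and a median of 0.38, including Zfp91 with Lpxn (793 against 335, 2.50-fold) and Zfp654 with Cggbp1 (697 against 311, 2.37-fold). The medians of these 5 lists turned to between -0.12 and -0.04 with scaling by library totals.

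Histone genes stood at one end of the lists and keratinocyte genes at the other. All 16 regions with histone genes had folds above 1, from 1.1 to 2.36, with a median log2 fold of 0.80, and this list kept a median of 0.30 with scaling by library totals, which left 0 of them higher and put 3 of the folds below 1. Of these, 2 were higher, H2bc7 with H2ac7 (134 counts in the stretched library against 60 in the control library, 2.36-fold) and H2ac12 with H2bc12 (184 against 91, 2.14-fold). Histone genes have near-identical copies, so how their reads were assigned is uncertain. Genes of keratinocytes and skin were at 10 regions, 0 of which were higher or lower, with a median of 0.06, which was -0.44 with scaling by library totals. Jund, an AP-1 transcription factor, and Iqcn had 398 against 234 counts, a fold of 1.80 (1.53 to 2.12). Tgm1, the transglutaminase of the cornified envelope, and Rabggta had 142 counts in the stretched library and 176 in the control library, a fold of 0.853 (0.679 to 1.07). Krt17/Krt42, a region between 2 keratin genes, had 77 against 112 counts, a fold of 0.726 (0.536 to 0.98), and was named after its values were seen.

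The regions with the most counts differed widely in fold. Khsrp, a splicing and mRNA decay factor, and Slc25a41 had the most, 1290 in the stretched library and 1123 in the control library, a fold of 1.21 (1.12 to 1.32). Cdca2, which targets a phosphatase to mitotic chromatin, and Kctd9 had 1164 and 970, a fold of 1.27 (1.16 to 1.38). For Fam72a and Srgap2, whose annotated starts overlap by 934 bp, the counts were 885 and 854 and the fold 1.1 (0.996 to 1.20). LOC108167694 with Gm20783, described above at 4.24-fold, was also among the 6 regions with the most counts. Another 2 of these stood apart from the first 3, Aasdhppt, which primes carrier proteins of fatty acid synthesis, with Kbtbd3 at 1207 counts in the stretched library against 510 in the control library (2.50-fold, 2.25 to 2.78) and Cnga4, an ion channel subunit of olfactory neurons, with Fam160a2 at 1101 against 537 (2.17-fold, 1.95 to 2.41). Scaling by library totals put Khsrp, Cdca2 and Fam72a below 1, at 0.858, 0.897 and 0.774, and removing the count dependence did so too, at 0.664, 0.710 and 0.638. Aasdhppt and Cnga4 were at 1.77 and 1.53 with library totals and at 1.46 and 1.28 with the count dependence removed, so both lost their call. Among tail-to-tail regions, Hmgcs1, an enzyme of cholesterol synthesis, and Nim1k had 328 against 195 counts, a fold of 1.78 (1.48 to 2.13), and Dcst2 and Zbtb7b 348 against 295, a fold of 1.25 (1.06 to 1.46).

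The authors' peak lists, made for each library alone, showed most shared regions open in both animals. A peak of both libraries lay in 93.8% of the shared regions, or 1662, a peak of the stretched library alone in 39, of the control library alone in 26, and none in 44. Both libraries had a peak in 99.1% of head-to-head regions, in 54.5% of tail-to-tail regions and in 92.0% of regions at 1 gene end. At 1 gene end, 3.53% of regions had a peak of the stretched library alone and 1.92% one of the control library alone. Among all autosomal regions, 60.3% had a peak of both libraries, 14.7% of the stretched library alone and 9.42% of the control library alone. The authors' fold enrichment over local background had a median of 9.94 in the stretched library and 7.37 in the control library at shared regions, of 10.9 and 8.21 at head-to-head regions, and of 8.97 and 6.71 at regions with 1 gene end. Over all autosomal regions these medians were 5.89 and 4.98. Enrichment is taken within each library, so it shares no scaling with the fold between libraries.

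Peak summits lay near the starts of head-to-head pairs and mostly at like places in both libraries. At 518 pairs whose starts do not overlap, and with a peak in both libraries, the summit with the highest pileup lay between the starts at 191 (36.9%) in the stretched library and at 163 (31.5%) in the control library. Its median distance from the midpoint of the starts was 95 bp in the stretched library and 136 bp in the control library, and from the nearest start 92 bp and 110 bp. At the 36 pairs with starts 500 bp or more apart, it was 385 bp in the stretched library and 331 bp in the control library from the midpoint, but 140 bp and 121 bp from the nearest start. The strongest summits of the libraries were a median of 22 bp apart, within 50 bp at 363 pairs (70.1%) and over 500 bp apart at 12. Where the starts lay 0 to under 100 bp apart, the summit fell between them at 13.7% of pairs in the stretched library and 11.5% in the control library, and where they lay 250 to under 500 bp apart at 74.3% and 70.3%. The stretched library had fewer fragments and higher enrichment, and their part in the difference between the libraries was not tested.

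**Figure D5:**
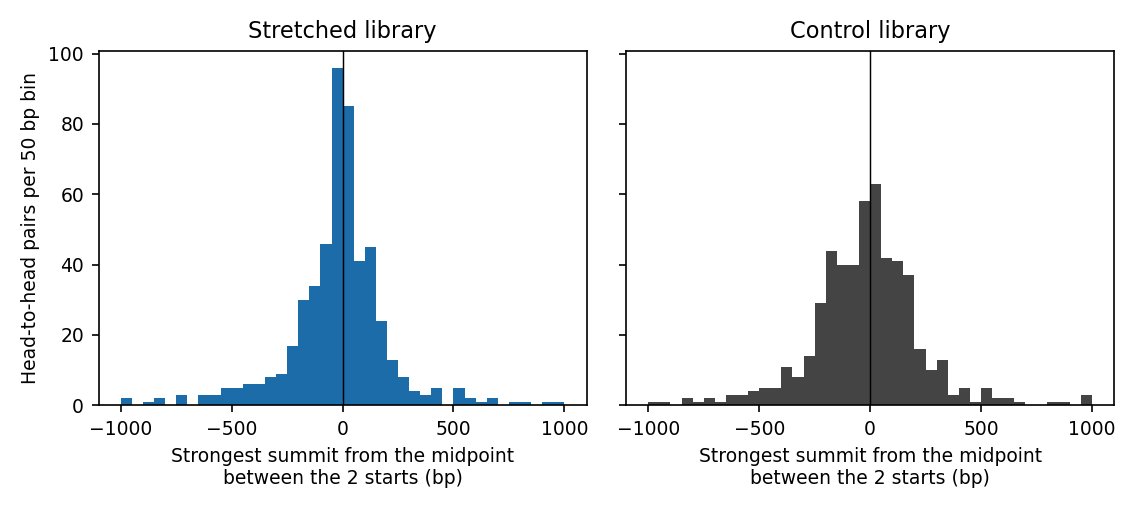
Distance of the strongest summit from the midpoint between the starts (horizontal axis, bp, plus strand to the right) at 518 head-to-head pairs, in bins of 50 bp, in the stretched library (left) and the control library (right). In each library 2 pairs lie beyond 1000 bp and are drawn in the outermost bins. Both distributions spread to either side of 0, with median distances of 95 bp in the stretched library and 136 bp in the control library.

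Promoter sequence, which the choice of regions did not use, also differed between head-to-head genes and other genes, though no test was made. Windows of 300 bp, from 250 bases before to 50 after the RefSeq start, were available for 1524 genes of head-to-head regions, 6574 genes of regions at 1 start and 14217 autosomal genes in all, and windows of the paired genes often overlap and so count the same bases again. Median GC content was 62.8% at head-to-head genes, 61.7% at genes of 1-start regions and 56.7% over all, and the median number of CpG dinucleotides was 24, 21 and 14. ETS letters (CCGGAAG, either strand) were in 27.8% of head-to-head promoters, 15.9% of 1-start promoters and 12.5% of all. YY1 letters (AAGATGG) were in 9.84%, 6.59% and 6.60%, ZNF143 letters (ACTACAA) in 6.23%, 3.99% and 4.01%, NRF1 letters in 7.68%, 6.72% and 4.80%, and CRE letters (TGACGTCA) in 4.00%, 3.39% and 2.50%. SP/KLF letters were in 47.8% of head-to-head promoters, 52.1% of 1-start promoters and 34.9% of all. NFY letters were in 40.4%, 38.5% and 39.6%. TATA letters (TATAAA) were less frequent, in 4.40%, 7.30% and 14.1%, and so were AP-1 letters, in 3.54%, 5.42% and 7.23%. None of the 9 motifs contains another.

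The fold varied little with most of these letters among head-to-head regions. Of 281 regions with ETS letters in a promoter window, 43 (15.3%) were higher, with a median log2 fold of 0.51, against 78 of 557 (14.0%) without them and a median of 0.45. NRF1 letters gave the widest gap in the share called higher, with 19 of 82 regions (23.2%) and a median of 0.63, against 102 of 756 (13.5%) and a median of 0.45 without them. At regions of 1 start the NRF1 gap was smaller, 10.6% higher with the letters and 9.72% without. The ETS gap was wider there, 13.2% higher with the letters and 9.13% without, with medians of 0.49 and 0.27. Of 38 head-to-head regions with CRE letters 21.1% were higher (median 0.65), against 14.1% without them (median 0.47). The head-to-head share was smaller with the letters for ZNF143 (6 of 65 regions, 9.23%, against 14.9%) and AP-1 (6 of 43, 14.0%, against 14.5%). The median went the other way for ZNF143, 0.56 with the letters and 0.47 without, and was 0.46 and 0.47 for AP-1. Median GC content was 63.7% at head-to-head regions called higher and 62.7% at those not called. These shares follow the TMM scaling, and no test was made of any motif.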

How the data were processed

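Chromatin accessibility of 1 stretched and 1 untreated mouse was measured by ATAC-seq. Per the submitters' processing notes the build was GRCm38, and MACS2 2.1.0.20151222, HTSeq, Picard, SAMtools and Bowtie2 2.2.6 were used. The deposited values per merged region are raw counts. The sources used here do not give how they were counted, how the Tn5 shift was treated or whether duplicates were removed. Per the file headers, peaks were called on each library alone at a q of 0.05, from fragments of paired ends. The deposited pileup is a signal at the summit, the deposited fold enrichment a ratio to local background. No result uses the -log10 p-values or q-values, also deposited.

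TMM scaling over all regions used edgeR 4.0.16 in R 4.3.3, and folds carry exact Clopper-Pearson intervals (95%). Where a count was 0, 3 stood in for it. No test was run, since each group is 1 library, and the rule of size was tested on simulated data. Gene ends came from the RefSeq table of GRCm38, and strand, known for 17492 of 21887 protein-coding genes, from the RefSeq promoter table, whose start differs from the outermost annotated one for some genes. Of the promoters, 59.8% began at that outermost start. Each window lay within 500 bp of it. No genome sequence was used. Starts are 1-based.

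The members and gene lists were chosen with earlier results of these data known. Regions named are the 8 with the largest and the 8 with the smallest fold at 100 counts or more, the 6 with the most counts, all textbook pairs, and the 2 with the most counts of each list and arrangement. Some regions that this rule names are not reported here. Ndufaf2/Ercc8, Fkbp3/Fancm, Rpa3/Umad1, Cenpk/Ppwd1, Dbf4/Slc25a40, Gabpa/Atp5j, Srsf7/Gemin6, Mrpl32/Psma2, Cct5/Atpsckmt, H2bc7/H2ac7, H2ac12/H2bc12, H3c13/H2bc18, H1f0/Gcat, Krt17/Krt42 and Slx4ip/Jag1 fall outside this rule. A gene can have ends at several regions, and 363 shared regions have a gene in common with another. Alternatives were other scalings, among them DESeq2 1.42.0 size factors, and other limits. Other tools were statsmodels 0.14.6, matplotlib 3.10.9, scipy 1.17.1, pandas 2.3.3, numpy 2.4.6 and Python 3.11.15.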

Additional observations from a re-analysis of the deposited data

How the results depend on the processing

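The split of shared regions depended most on the scaling. With library totals, 18 were higher and 124 lower, and the medians reversed to -0.14 at shared regions and -0.23 at regions with 1 gene end, since this scaling lowers every log2 fold by the same amount. With counts outside the 10 large regions, 116 were higher and 41 lower, with medians of 0.21 and 0.13. With a lowess trend on the count removed, 56 were higher, the medians were 0.109 and 0.0933 and their difference 0.0154, and the head-to-head median lay 0.07 above that of regions at 1 start. With at least 100 counts, 4 were lower and the medians were 0.40 and 0.34. With both ends inside the region, 7 were lower, the median was 0.42 and the difference 0.15, and with 1000 bp 44 were lower, the median was 0.292 and the difference 0.0150. With a peak of both libraries, 8 were lower and the median at 1 gene end was 0.30. A fold limit of 1.5 gave 586 higher and 73 lower. DESeq2 size factors, no count filter, regions of at most 2 kb, no placeholder genes and no interval rule moved none of the 5 main results beyond the limits set for them. Of the 62 named regions, library totals took the call from 11 and gave one to 5, and removing the trend took it from 11 and gave one to 2. Among those with no call before or after, 33 folds left their own counting interval with library totals and 26 with the trend removed. By these rules 13 and 23 of the 62 stayed the same. The cause of changes other than those of scaling was not tested. No paired analysis was possible because each group has 1 library, and no replicate could be left out. The comparison of head-to-head regions with regions at 1 start under each scaling and the values of named regions and gene lists under the other scalings and without the count trend were added after seeing the data. Counts limit what can be seen at the shared regions with few counts, where intervals are wide.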
